A study of Mus musculus with 2 samples.

Results

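Insulin receptor signalling and glucose uptake were followed here through 9 genes in a subcutaneous fat depot of the mouse, inguinal white adipose tissue (iWAT): the receptors Insr and Igf1r, the adaptors Irs1 and Irs2, the kinase components Pik3r1 and Akt2, the transcription factor Foxo1 and the glucose transporters Slc2a4 and Slc2a1. They were chosen by name, and 9 of 9 were found among the 31053 genes of both matrices. Their unique molecular identifiers (UMIs, each marking 1 captured RNA molecule) were summed over the nuclei of each cell class in each library. Levels are given as CPM, the UMIs of a gene scaled to 1000000 UMIs of its class.

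Single-nucleus RNA sequencing was performed on iWAT of male mice on a C57BL/6 background fed a Western diet. The library with the label Lexis WT came from Lexis-AdWT mice, which carry floxed Lexis without Cre, and the library with the label Lexis KO from Lexis-AdKO littermates, in which Cre driven by the Adipoq promoter deletes Lexis, a long noncoding RNA, in adipocytes. Tissue of 3 mice was pooled for each library after the lymph node was taken out, and the study's methods give an age range for most of its experiments but no age for these mice in particular. Other cell classes keep Lexis by design, and pooling hides the spread between mice. Each genotype had 1 library, so no test was possible, and all intervals are 95% intervals for counting error only. The deposited files are named with the opposite genotype to the labels, and Lexis itself was not analysed here, so every direction holds for the library labelled WT or KO.

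In fat cells, insulin binding to its receptor leads to tyrosine phosphorylation of the insulin receptor substrates, which recruit phosphoinositide 3-kinase through its regulatory subunit. The lipid that this kinase makes activates AKT2, which moves vesicles carrying the transporter GLUT4 (Slc2a4) to the cell surface and keeps FOXO1 out of the nucleus. Adipose tissue is among the classical tissues of insulin-stimulated glucose uptake, together with skeletal and heart muscle, and FOXO1 is known to drive transcription of both Insr and Irs2.

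Filtering kept 3503 nuclei (labelled WT) and 2852 nuclei (labelled KO), with median depths of 1195 and 3879 UMIs. Clusters were named from marker lists, and a class named in this way holds nuclei that are like that cell type. There were 417 and 894 adipocyte nuclei (the library labelled WT first, here and in each pair of values), 300 and 786 nuclei of adipogenic stem and precursor cells with fibroblasts (ASPC), 332 and 838 myeloid, 2008 and 101 lymphocyte and 94 and 122 endothelial nuclei. Lymphoid stroma (150 nuclei) was found in the library labelled WT and skeletal myocytes (52 nuclei) in the library labelled KO. Of 10 adipocyte markers, 10 were highest in adipocytes in both libraries, with a summed level of 14299 and 14285 CPM, against 516 to 1058 and 816 to 3049 CPM in the other classes. The same lists named the clusters, so this does not test the names. With each nucleus assigned by its own marker UMIs, 79.6% and 90.5% of adipocyte nuclei kept their class. The shares were 79.3% and 81.2% for ASPC, 52.1% and 80.9% for myeloid, 65.6% and 50.5% for lymphocyte and 68.1% and 94.3% for endothelial nuclei. Summed lymphocyte markers reached 878 to 1758 CPM in classes other than lymphocytes in the first library and 42.5 to 557 CPM in the second. Adipocytes were also deeper in the library labelled KO, with a median of 7848 against 3643 UMIs, and 10 kept barcodes occurred in both libraries.

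Adipocytes were the highest class in both libraries for 3 of 9 genes (Irs2, Pik3r1 and Akt2), against 8.36% of all genes tested in both. A gene was called led by adipocytes where its level there was at least 2 times that of every other class with at least 50 nuclei. By this rule 3 of 9 genes (Irs2, Akt2 and Slc2a4) were led by adipocytes in the library labelled WT, where 4.48% of all 10733 genes tested were. In the library labelled KO 2 of 9 were (Irs2 and Akt2), against 5.75% of 13342 genes. Both libraries gave Irs2 and Akt2, against 2.74% of the 10365 genes tested in both. Over the 5 classes found in both libraries, a choice made after the data had been seen, 4 of 9 genes (Pik3r1 and Slc2a4 in addition) were led by adipocytes in both, against 3.80% of all genes.

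Since Irs2 and Akt2 were the genes led by adipocytes in both libraries, and had similar profiles over the classes, their promoters are shown. Each 300-base window runs from 250 bases before to 50 bases after an annotated start, from RefSeq on GRCm38.p6 (mm10), 5′ to 3′ on the strand of the gene. Capitals mark matches, on either strand, to the GC box GGGCGG and to CCAAT. The Irs2 window is chr8:11008880-11009179 on the minus strand, and the Akt2 window, at the most upstream of 4 starts in the table, is chr7:27591302-27591601 on the plus strand.
Irs2: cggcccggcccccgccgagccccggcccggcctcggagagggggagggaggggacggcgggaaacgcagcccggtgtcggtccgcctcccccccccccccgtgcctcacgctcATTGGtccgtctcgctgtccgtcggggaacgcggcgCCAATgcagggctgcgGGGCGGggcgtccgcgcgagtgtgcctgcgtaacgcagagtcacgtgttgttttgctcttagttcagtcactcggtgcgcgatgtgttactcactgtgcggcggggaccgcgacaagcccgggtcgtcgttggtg
Akt2: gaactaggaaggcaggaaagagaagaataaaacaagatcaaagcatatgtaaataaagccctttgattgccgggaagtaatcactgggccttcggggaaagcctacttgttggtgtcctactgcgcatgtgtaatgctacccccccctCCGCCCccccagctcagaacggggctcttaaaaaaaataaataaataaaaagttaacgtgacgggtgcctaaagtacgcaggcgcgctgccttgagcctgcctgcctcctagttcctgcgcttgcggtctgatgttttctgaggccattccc
GGGCGG occurred 1 time in each, without overlap with another match, and occurs in 35.7% of the 32851 promoter windows of this length. CCAAT occurred 2 times in the Irs2 window and 0 times in the Akt2 window, against a share of 37.4% of all windows. GTAAACA (the FOXO core site, 3.65% of windows), AGGTCA (bound by nuclear receptors, 16.3%) and TATAAA (13.6%) had 0 matches in either on both strands. The Irs2 window held 41 CG dinucleotides and that of Akt2 12, where the median of all windows was 7. These matches describe the letters of the windows and do not show binding.

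**Figure D1:**
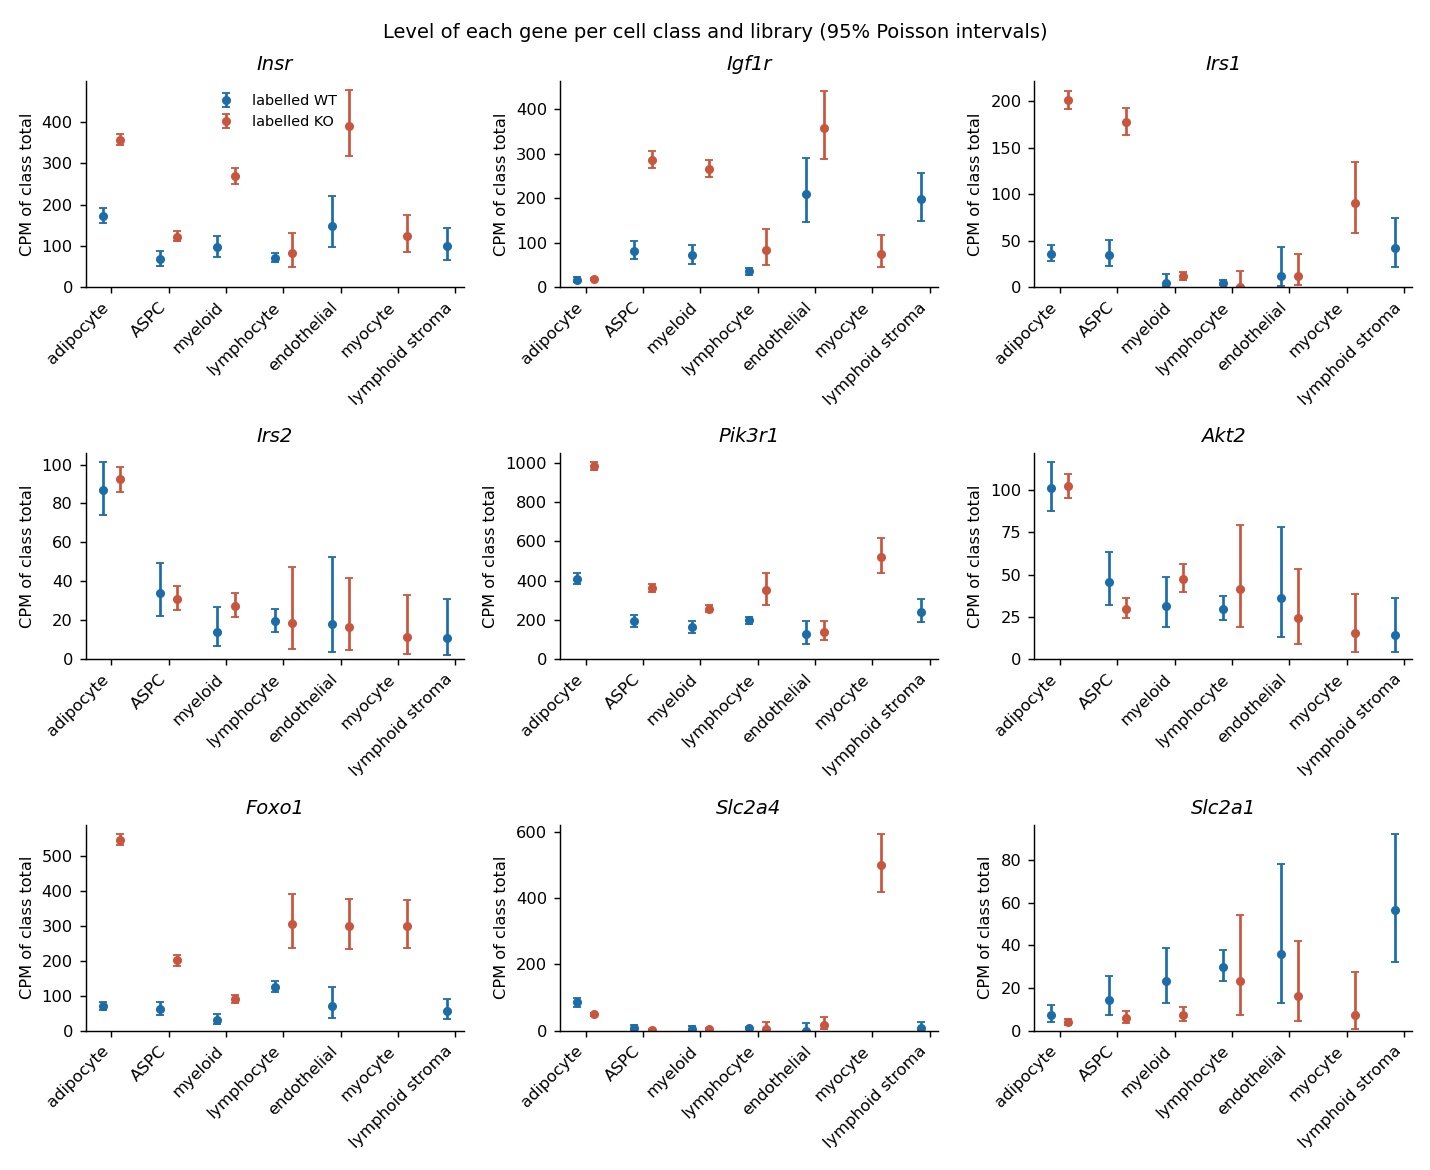
Level of each of the 9 genes (CPM of the class total, linear axes from 0) per cell class, in the library labelled WT (blue) and labelled KO (red), with 95% Poisson intervals. Irs2 and Akt2 are highest in adipocytes in both libraries, Igf1r is lowest there, and Slc2a4 reaches 499 CPM in the myocytes of the library labelled KO.

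At the receptors, Insr and its relative Igf1r had different profiles. Insr (ENSMUSG00000005534, chr8:3150922-3279649) encodes the insulin receptor. Its level in the library labelled WT was 173 CPM in adipocytes (155 to 192), 149 in endothelial nuclei, 99.0 in lymphoid stroma, 97.0 in myeloid nuclei, 70.9 in lymphocytes and 67.7 in ASPC. In the library labelled KO it was 392 CPM in endothelial nuclei (317 to 478), 358 in adipocytes (346 to 371), 270.0 in myeloid nuclei, 125 in myocytes, 122 in ASPC and 83.4 in lymphocytes. Adipocytes and endothelial nuclei had the highest levels in both libraries and did not differ from each other beyond counting error in either, with an adipocyte over endothelial ratio of 1.16 (0.770 to 1.81) in the library labelled WT. There, however, 14 of the 25 endothelial UMIs came from 3 of 94 nuclei, and endothelial nuclei did not differ from lymphoid stroma either (1.51, 0.844 to 2.68). Without the 3 nuclei with most Insr UMIs in each class the ratio was 2.35 (1.30 to 4.76), with 70.0 CPM in endothelial nuclei of that library, so their place near adipocytes in it rests on those nuclei.

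Igf1r (ENSMUSG00000005533, chr7:67952257-68233668), the receptor of insulin-like growth factor 1, was lowest in adipocytes in both libraries. Its adipocyte level was 16.5 CPM (11.3 to 23.2, 32 UMIs) and 18.2 CPM (15.4 to 21.2, 157 UMIs). Endothelial nuclei were highest with 209 and 359 CPM, followed by lymphoid stroma (198 CPM) in the library labelled WT and by ASPC (287 CPM) and myeloid nuclei (267 CPM) in the library labelled KO. The lead of endothelial nuclei was within counting error in both, 1.06 (0.672 to 1.64) over lymphoid stroma and 1.25 (0.994 to 1.56) over ASPC. The adipocyte level was 0.0787 (0.0472 to 0.131) and 0.0506 (0.0387 to 0.0664) of the endothelial one, and the gap to the next lowest class, lymphocytes in the library labelled WT and myocytes in the library labelled KO, was beyond counting error. Without the 3 nuclei with most Igf1r UMIs in each class, lymphocytes labelled KO had 28.7 CPM and the adipocyte level was 0.583 of theirs (0.261 to 1.61), within counting error.

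The pair can be compared between classes as the share of Insr among the UMIs of both genes, a share that depends on the length and capture of each transcript and so says nothing of their relative abundance. It was 91.3% (88.0 to 94.0) and 95.2% (94.4 to 95.9) in adipocytes. In the other classes it lay between 33.3% (lymphoid stroma) and 66.5% (lymphocytes) in the library labelled WT and between 29.9% (ASPC) and 62.3% (myocytes) in the library labelled KO. The adipocyte interval overlapped that of no other class with at least 50 nuclei in either library.

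**Figure D2:**
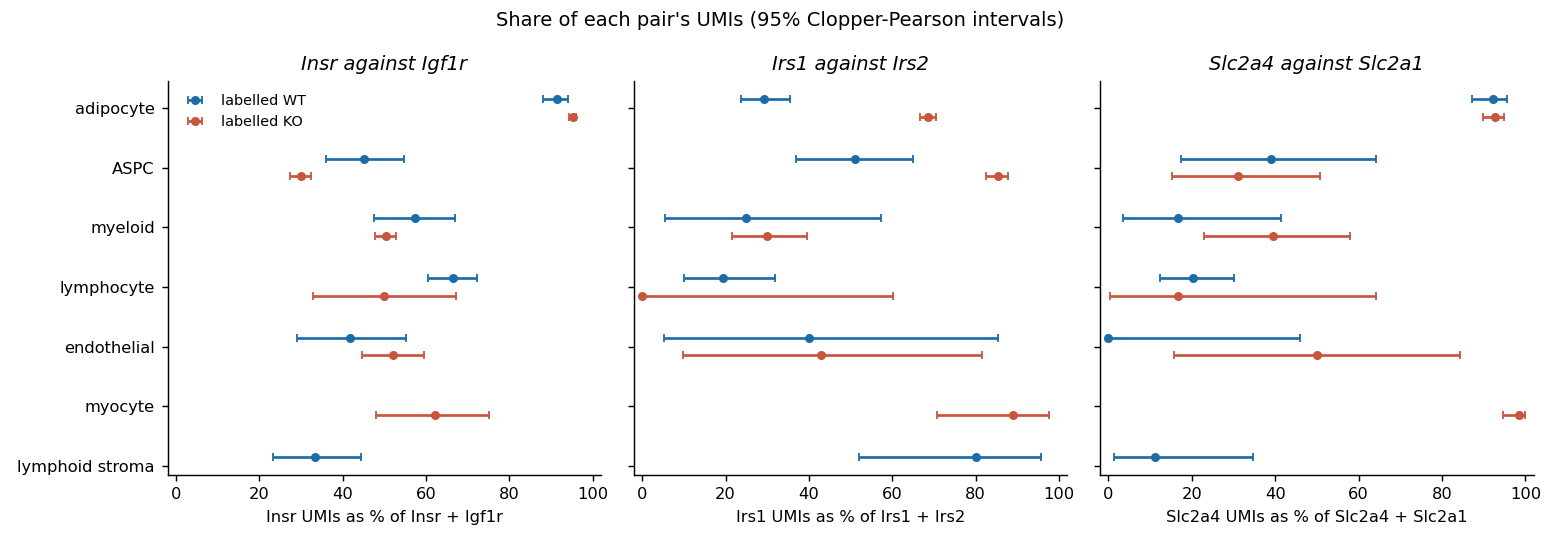
Share of the first gene among the summed UMIs of each pair (percent) by cell class, in the library labelled WT (blue) and labelled KO (red), with 95% Clopper-Pearson intervals. The Insr share and the Slc2a4 share of adipocytes are above 90% in both libraries, whereas the Irs1 share of adipocytes differs between them.

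The adaptors Irs1 and Irs2 carry the signal from the activated receptor to phosphoinositide 3-kinase. Irs1 (ENSMUSG00000055980, chr1:82233105-82291439) was detected mainly in adipocytes and stromal classes. Its level in adipocytes was 36.0 CPM (28.1 to 45.5) and 202 CPM (192 to 211), and in ASPC 35.1 CPM (23.2 to 51.1) and 178 CPM (164 to 193). Lymphoid stroma had 42.4 CPM and myocytes 90.7 CPM, while myeloid, lymphocyte and endothelial nuclei stayed between 0 and 12.2 CPM over both libraries. In the library labelled WT the 3 highest classes were not apart, and in the library labelled KO adipocytes were 1.13 times ASPC, beyond counting error. Irs1 had 0 UMIs in lymphocytes of the library labelled KO, so that against the limit of 3 counts in that class, a one-sided 95% limit taken without the error of the adipocyte level, the latter was at least 14.5-fold higher.

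Irs2 (ENSMUSG00000038894, chr8:10984681-11008929) was higher in adipocytes than in every other class in both libraries. Its adipocyte level was 86.9 CPM (74.3 to 101) and 92.3 CPM (86.0 to 99.0), and ASPC came next with 33.8 and 30.8 CPM, a ratio of 2.57 (1.69 to 4.05) and 3.00 (2.44 to 3.73). The remaining classes had 10.6 to 27.2 CPM. Levels of Irs2 in adipocytes and in ASPC were thus close between the libraries, unlike those of Irs1.

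As a result the Irs1 share of the Irs1 and Irs2 UMIs differed between the libraries in adipocytes, with 29.3% (23.6 to 35.5) and 68.6% (66.8 to 70.4), and in ASPC, with 50.9% (36.8 to 64.9) and 85.3% (82.4 to 87.8). In both libraries the share was lower in adipocytes than in ASPC. Irs1 has 49172 intronic bases against 17455 in Irs2, and ratios between the libraries moved with intronic length.

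Pik3r1 (ENSMUSG00000041417, chr13:101680761-101768217) encodes p85α, the main regulatory subunit of phosphoinositide 3-kinase. It was highest in adipocytes in both libraries, with 410.4 CPM (382 to 440) and 985 CPM (964 to 1006). The next class had 240.5 CPM (lymphoid stroma) and 522 CPM (myocytes), and the adipocyte level was 1.71 and 1.89 times these, short of 2. Without the 3 nuclei with most Pik3r1 UMIs in each class, these ratios were 2.005 (1.52 to 2.69) and 2.33 (1.92 to 2.86). That step took 13 of 68 UMIs from lymphoid stroma and 36 of 138 from myocytes. From adipocytes it took 46 of 798 and 237 of 8512. It lowers a small class more, so Pik3r1 was not counted as led by adipocytes on these ratios. Endothelial nuclei were lowest, with 125.5 and 139 CPM. In the library labelled WT this place was within counting error, with a myeloid over endothelial ratio of 1.28 (0.797 to 2.16).

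Akt2 (ENSMUSG00000004056, chr7:27591552-27640826), the AKT kinase best known for the metabolic actions of insulin, was led by adipocytes. Its adipocyte level was 101 CPM (87.7 to 117) and 102.3 CPM (95.7 to 109). The next class was ASPC with 45.5 CPM in the library labelled WT, a ratio of 2.23 (1.55 to 3.29), and the myeloid class with 47.5 CPM in the library labelled KO, a ratio of 2.15 (1.79 to 2.61). Among the classes other than adipocytes, neighbours in the order did not differ beyond counting error in either library.

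Foxo1 (ENSMUSG00000044167, chr3:52268337-52350109), a transcription factor that insulin signalling keeps inactive and that is also needed in lymphocytes, held a different place in the order of each library. Lymphocytes were highest in the library labelled WT with 126 CPM (112 to 141), within counting error of endothelial nuclei (71.7 CPM, a ratio of 1.755, 0.990 to 3.43). Adipocytes had 69.95 CPM (58.7 to 82.7), not apart from endothelial nuclei, ASPC (61.2) or, by overlapping intervals, lymphoid stroma (56.6). Adipocytes were highest in the library labelled KO with 545 CPM (530 to 561), followed by lymphocytes (306), myocytes (298.6), endothelial nuclei (298), ASPC (201) and myeloid nuclei (90.0). The adipocyte level was thus 0.556 times that of lymphocytes (0.451 to 0.683) in the first library and 1.78 times (1.40 to 2.31) in the second. In the second it was 2.01 times (1.54 to 2.68) without the 3 nuclei with most Foxo1 UMIs in each class. That step took 11 of 66 lymphocyte UMIs but 118 of 4713 adipocyte UMIs, so it lowers the smaller class more.

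Slc2a4 (ENSMUSG00000018566, chr11:69942286-69948216) encodes GLUT4, the insulin-responsive transporter of fat and muscle. Its level in adipocytes was 85.4 CPM (72.9 to 99.4, 166 UMIs) and 49.99 CPM (45.4 to 54.9, 432 UMIs). The next class in the library labelled WT was ASPC with 9.11 CPM, a ratio of 9.37 (4.45 to 23.7), and endothelial nuclei had 0 UMIs, so that the adipocyte level was at least 4.76-fold higher against the same one-sided limit of 3 counts in that class. By contrast, the 52 myocyte nuclei of the library labelled KO had 499 CPM (418 to 592, 132 UMIs), and the adipocyte level was 0.100 of theirs (0.0823 to 0.123). Without myocytes, which the library labelled WT lacked, adipocytes were highest there as well among classes with at least 50 nuclei. They were 3.06 times endothelial nuclei (1.19 to 11.3) and 18.4 times ASPC (9.61 to 40.6). The 44 nuclei of pericytes and smooth muscle, under that minimum, had 57.1 CPM (24.6 to 112.5), with 6 of 8 UMIs from 3 nuclei.

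Slc2a1 (ENSMUSG00000028645, chr4:119108745-119137330) encodes GLUT1, the transporter of basal glucose uptake in many cells. It was sparse, with 133 and 85 UMIs over the classes with at least 50 nuclei, and adipocytes were the lowest class in both libraries with 7.20 CPM (3.94 to 12.1) and 3.93 CPM (2.72 to 5.50). The highest level was 56.6 CPM in lymphoid stroma of the library labelled WT (32.3 to 91.9), and lymphocytes were highest in the library labelled KO at 23.2 CPM (7.53 to 54.1). No neighbours in either order were apart beyond counting error.

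The share of Slc2a4 among the UMIs of both transporters was 92.2% (87.3 to 95.7) and 92.7% (90.0 to 94.9) in adipocytes and 98.5% (94.7 to 99.8) in myocytes. In ASPC it was 38.9% (17.3 to 64.3) and 31.0% (15.3 to 50.8), and in lymphocytes of the library labelled WT 20.2% (12.5 to 30.1). Adipocytes and myocytes thus stood above ASPC in this share, whereas in the endothelial class 6 and 8 UMIs were too few to place it.

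To ask how adipocytes differed with Lexis genotype, the CPM ratio of the library labelled KO over that labelled WT was taken within adipocytes, for genes with at least 50 UMIs over both. The ratio reached 2 for 4 of 8 genes tested (Foxo1, Irs1, Pik3r1 and Insr), against 26.0% of all 11350 genes, and lay at or under 0.5 for 0 of 8, against 17.6%. With class totals that leave out mitochondrial genes and Malat1, 3 of the 4 reached 2, and Insr did not, at a log2 ratio of 0.80. The median log2 ratio was 0.60 for the 8 genes and -0.01 for all genes.

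Ratios between the libraries moved with intronic length in all 5 classes found in both. In adipocytes the median log2 ratio of all tested genes was -0.90 for genes with up to 3000 intronic bases and 1.44 for genes with more than 100000, and in ASPC, myeloid, lymphocyte and endothelial nuclei it was 1.25 to 1.58 in the longest genes. The adipocyte ratio of each of the 8 genes tested is therefore followed by its log2 value less the running median over 501 genes of like intronic length. Apart from endothelial nuclei, the nuclei of a class also lay mostly in different clusters in the libraries. ASPC were mainly in cluster 8 (295 nuclei, labelled WT) against clusters 5 and 6 (382 and 373 nuclei, labelled KO), myeloid nuclei in cluster 7 (312) against 3 and 9 (542 and 277), and lymphocytes in clusters 0 and 2 (1228 and 779) against 14 and 17 (59 and 31), so a ratio within a class is also one between clusters. Whether the remainder reflects Lexis, the pool of mice or the preparation cannot be told apart with 1 library per genotype.

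Foxo1 and Irs1 had the highest ratios of the 8 genes. Foxo1 was 7.80 times higher in the library labelled KO (6.57 to 9.32), a log2 ratio of 2.96, or 2.38 (2.14 to 2.64) relative to genes of like intronic length. Irs1 was 5.60 times higher (4.41 to 7.22), a log2 ratio of 2.49, or 2.05 (1.70 to 2.41) relative to such genes. These 2 of 8 kept a ratio of at least 2 after the subtraction, against 18.9% of 10631 genes with a length.

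For Irs1 the ratio in ASPC was 5.07 (3.45 to 7.77), and the adipocyte log2 ratio exceeded it by 0.14 (-0.51 to 0.80), within counting error. The level of Irs1 in ASPC labelled KO was itself a mean over unlike clusters, with 218 CPM in cluster 5 and 117 CPM in cluster 6. For Foxo1, in contrast, the adipocyte log2 ratio exceeded that of ASPC by 1.24 (0.75 to 1.74), that of myeloid nuclei by 1.44 (0.74 to 2.14) and that of lymphocytes by 1.68 (1.22 to 2.14), beyond counting error, while the difference from endothelial nuclei was 0.91 (-0.01 to 1.82). Foxo1 was nevertheless higher in the library labelled KO in each of the 5 classes of both libraries, by 2.43 to 7.80 times.

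Pik3r1 was 2.40 times higher in adipocytes of the library labelled KO (2.23 to 2.58), with 0.70 (0.60 to 0.81) of the log2 ratio of 1.26 remaining relative to genes of like intronic length. Insr was 2.07 times higher (1.85 to 2.33), but its 119027 intronic bases put it near other genes of that length, with 0.06 (-0.10 to 0.23) remaining of a log2 ratio of 1.05. The Insr ratio was 2.79 (2.15 to 3.67) in myeloid nuclei, 2.62 (1.67 to 4.25) in endothelial nuclei, 1.81 (1.35 to 2.46) in ASPC and 1.18 (0.681 to 1.92) in lymphocytes. The adipocyte log2 ratio exceeded that of lymphocytes by 0.82 (0.10 to 1.54), beyond counting error, and differed from that of myeloid nuclei by -0.43 (-0.83 to -0.02), or -0.41 (-0.84 to 0.02) without the 3 nuclei with most Insr UMIs in each class and library. Without those nuclei the endothelial ratio was 4.2 (2.21 to 8.80), and the difference of adipocytes from it went from -0.34 (-0.996 to 0.315) to -0.96 (-1.90 to -0.03). In the library labelled WT this took 14 of 25 endothelial UMIs but 22 of 336 adipocyte UMIs, which raises the endothelial ratio. The last interval makes no allowance for the choice of nuclei, so no difference was read from it.

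Irs2 and Akt2 were near equal in adipocytes of both libraries, with ratios of 1.06 (0.899 to 1.26) and 1.01 (0.864 to 1.18). Relative to genes of like intronic length their log2 ratios were 0.26 (0.01 to 0.50) and -0.29 (-0.51 to -0.06), and the sign of the uncorrected value depended on the scaling, at 0.37 and 0.30 with TMM scaling and -0.17 and -0.24 with class totals that leave out mitochondrial genes and Malat1.

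Igf1r had a ratio of 1.10 in adipocytes (0.751 to 1.67), lower than in ASPC and myeloid nuclei. Its ratio was 3.50 in ASPC and 3.71 in myeloid nuclei, and the adipocyte log2 ratio differed from these by -1.67 (-2.33 to -1.01) and -1.75 (-2.44 to -1.05). The ASPC clusters labelled KO had 182 and 464 CPM, both above the 82.0 CPM of ASPC in the library labelled WT. In lymphocytes the ratio was 2.34, a difference of -1.08 (-2.0 to -0.17), but 12 of the 18 UMIs of the library labelled KO came from 3 nuclei. Without the 3 nuclei with most Igf1r UMIs in each class and library, that difference became 0.48 (-0.87 to 1.82), and those from ASPC and myeloid nuclei -1.56 (-2.29 to -0.83) and -1.68 (-2.44 to -0.91). The difference from endothelial nuclei was -0.64 (-1.42 to 0.15). Adipocytes had the lowest Igf1r level among classes with at least 50 nuclei, and the part of free RNA in it was not tested. Relative to genes of like intronic length (269296 intronic bases), the adipocyte log2 ratio was -1.72 (-2.27 to -1.12), the 1 of 8 genes with a ratio of at most 0.5 on that scale, against a similar share of 11.8% of all genes. In ASPC it was -0.27 (-0.64 to 0.12) on the same scale, within counting error of genes of that length, as it was in myeloid nuclei (-0.10) and lymphocytes (-0.34), whereas endothelial nuclei, at -0.74 (-1.32 to -0.13), also lay below such genes.

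Slc2a4 was lower in adipocytes labelled KO than in those labelled WT, by a factor of 0.586 (0.488 to 0.705). With 2813 intronic bases it is the shortest of the 9 in this respect, and its log2 ratio of -0.77 became -0.04 (-0.30 to 0.23) relative to genes of like length. Slc2a1 had 14 and 34 UMIs in adipocytes, under the minimum of 50, and a ratio of 0.546 with an interval of 0.286 to 1.10.

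**Figure D3:**
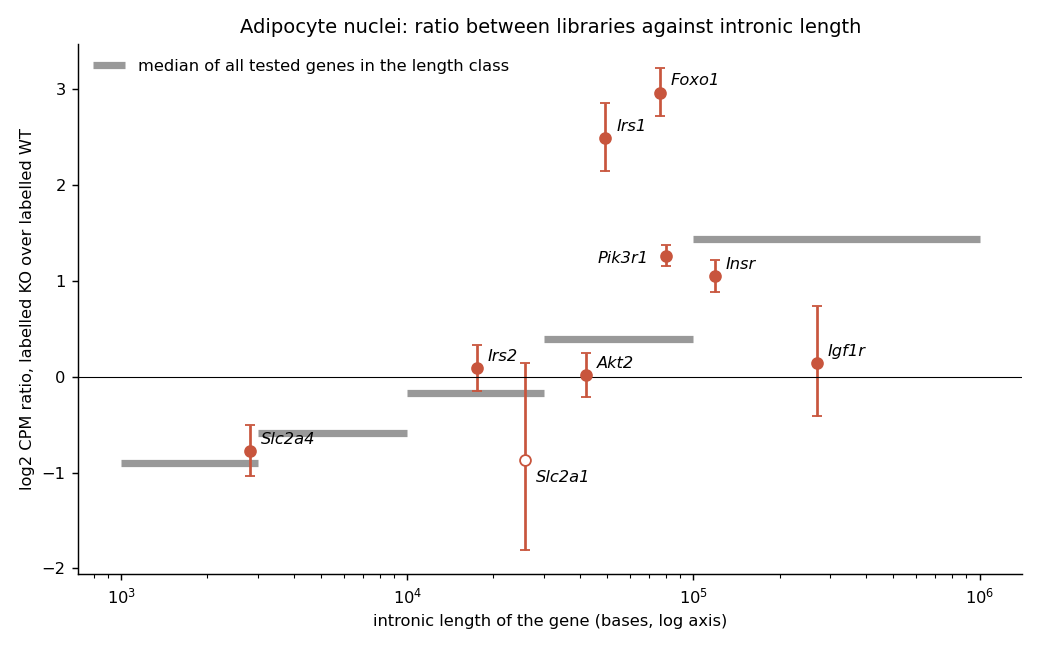
Log2 CPM ratio in adipocyte nuclei, labelled KO over labelled WT, of the 9 genes (points with 95% conditional binomial intervals, open for Slc2a1 with under 50 UMIs) against intronic length (bases, log axis). Grey bars give the median of all tested genes in 5 length classes, from -0.90 in the shortest to 1.44 in the longest, and Foxo1 and Irs1 lie above the bar of their class while Igf1r lies under its own.

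Detection per nucleus was compared after each nucleus had been thinned to 1000 UMIs, which left out 10 of 417 and 5 of 894 adipocyte nuclei. Foxo1 was detected in 6.88% (4.62 to 9.79) and 39.7% (36.5 to 43.0) of adipocyte nuclei, a difference of 32.8 percentage points (28.5 to 36.8). Pik3r1 was detected in 30.0% and 54.7%, a difference of 24.7 points (18.9 to 30.2). Irs1 differed by 12.8 points (9.52 to 15.9), from 3.69% to 16.5%, and Insr by 9.27 points (4.24 to 14.01), from 18.2% to 27.5%. With nuclei thinned to 500 UMIs, the differences were 19.3 points for Foxo1, 20.7 for Pik3r1, 7.75 for Irs1 and 8.45 for Insr. The share of all genes with such a difference was not taken. Thinning equalises depth but not the shift with intronic length. For Insr, the adipocyte log2 ratio relative to genes of like intronic length was 0.06 (-0.10 to 0.23).

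For the other 5 genes the difference lay within counting error, and the widest interval, that of Akt2, ran from -4.66 to 2.61 percentage points. Unthinned, these shares were 24.2% and 86.5% for Foxo1 and 28.5% and 33.7% for Slc2a4, at median depths of 3643 and 7848 UMIs. Lymphocytes, a class not known for GLUT4, had Slc2a4 in 0.399% (0.109 to 1.02) of thinned nuclei in the library labelled WT (1002 nuclei, with 1006 shallower ones left out, and a median of 999 UMIs over all of them before thinning) and in 0 of 88 in the library labelled KO (0 to 4.105%, with 13 left out and a median of 2077 UMIs before thinning). These shares of the deeper lymphocytes were taken as the scale of free RNA. Adipocyte shares of 6.88% and 5.74% for Slc2a4 were above them. For Slc2a1, which many cell types express, no class could serve as background. Its adipocyte share was 0.246% (0.00622 to 1.36) and 0.450% (0.123 to 1.15), against 0.380% (0.0784 to 1.11) in myeloid nuclei of the library labelled KO and 2.69% (1.78 to 3.90) in lymphocytes labelled WT. With 1 and 4 adipocyte nuclei holding a UMI, the share could not be told from free RNA.

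**Figure D4:**
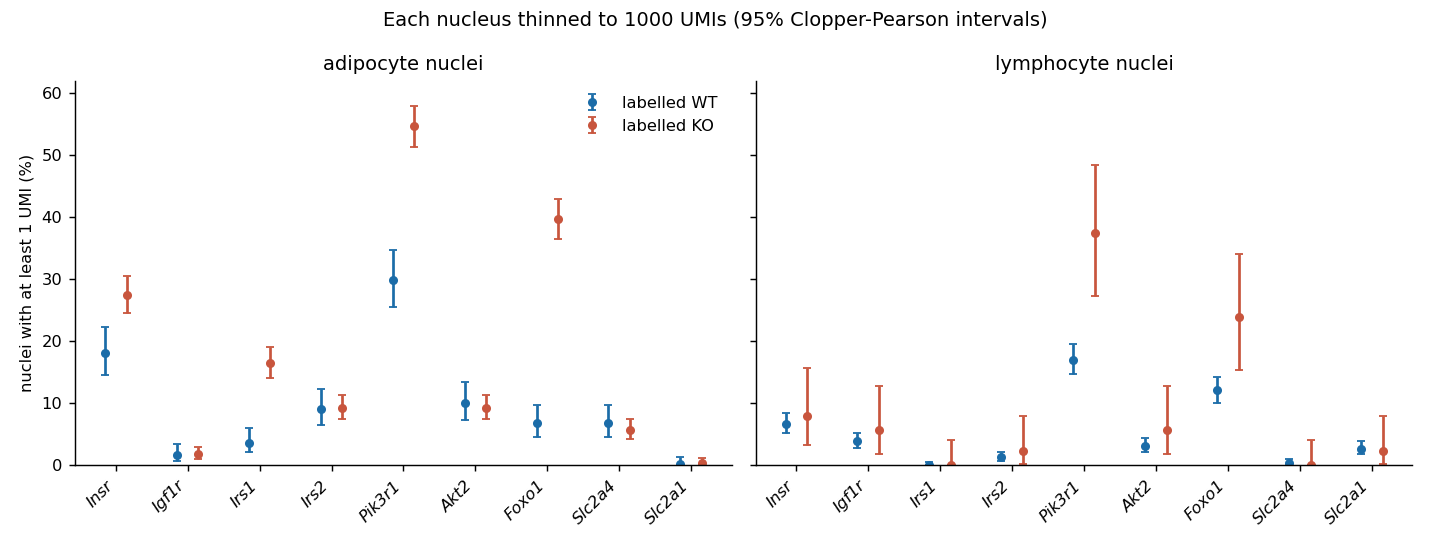
Share of nuclei with at least 1 UMI of each gene (percent, axis from 0) after thinning to 1000 UMIs, in adipocyte (left) and lymphocyte nuclei (right) of the library labelled WT (blue) and labelled KO (red), with 95% Clopper-Pearson intervals. In adipocytes the libraries are apart for Insr, Irs1, Pik3r1 and Foxo1, and the Foxo1 share is 6.88% against 39.7%.

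Within the library labelled KO, finer clustering (resolution 1.0) divided adipocytes into a cluster of 577 nuclei with a median of 6677 UMIs and a cluster of 312 nuclei with a median of 12170 UMIs. Irs1 was 280 CPM (264 to 296) in the first and 127 CPM (117 to 138) in the second, and Slc2a4 was 67.8 CPM (60.1 to 76.1) and 32.9 CPM (27.7 to 38.7). Pik3r1 followed with 1134 and 842 CPM and Irs2 with 105 CPM (95.7 to 115.5) and 80.2 CPM (72.1 to 89.0), whereas Insr (363 and 354 CPM) and Foxo1 (520 and 571 CPM) were closer. The cluster with more UMIs per nucleus thus had lower Irs1, Slc2a4, Pik3r1 and Irs2, and the part of depth in this was not tested. Adipocytes of the library labelled WT formed 1 cluster at this resolution.

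ASPC and myeloid nuclei of the library labelled KO were also not uniform. In ASPC cluster 5, led by Ccbe1 and Sfrp2 (382 nuclei), Igf1r was 182 CPM (164 to 201), Foxo1 137 CPM and Irs1 218 CPM. In ASPC cluster 6, led by Sema3e and Nr1h4 (373 nuclei), Igf1r was 464 CPM (427 to 504), Foxo1 315 CPM and Irs1 117 CPM. Igf1r and Foxo1 were therefore higher, and Irs1 lower, in the second. Among myeloid nuclei, a cluster with Vsig4 among its leading genes (542 nuclei) had 326 CPM of Insr and 343 CPM of Igf1r, and a cluster with St18 and Dcstamp (277 nuclei) had 170 CPM and 126 CPM. Of the 9 genes, 1 was among the 2000 variable genes used for clustering.

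Likeness of profiles was described by Pearson's r of log2(CPM + 10), centred within each library, over 12 pairs of class and library, among 5368 genes with at least 200 UMIs in each library. Irs1 (125 UMIs in the library labelled WT) and Slc2a1 (133 and 85 UMIs) were themselves below that minimum. These points share libraries and depth, and r is given as a description. The nearest genes are the highest of a search over many genes, and how high r would be by search alone was not tested. The gene most like Akt2 was Irs2 (r = 0.93), followed by Acadm (0.92), an enzyme of fatty acid oxidation, and Pank3 (0.92), a kinase of coenzyme A synthesis. Among the profiles most like Irs2 were those of Snhg11 (0.96) and Slc25a51 (0.96), a mitochondrial NAD+ transporter. Insr was nearest to Cebpg (0.92), Plcb1 (0.90) and Aplp2 (0.89), Igf1r to Mrpl52 (0.91), Calcrl (0.90), a receptor subunit of endothelial cells, and Cnrip1 (0.87), and Irs1 to Cpeb1 (0.94), Mpdz (0.93) and Ube2e2 (0.92). Pik3r1 was nearest to Pcyt2 (0.92), Fam214a (0.91) and Dusp10 (0.91), Foxo1 to Zfp507 (0.87), Tapt1 (0.84) and Cecr2 (0.80), Slc2a4 to 5031425E22Rik (0.94), Tob2 (0.91) and Tob1 (0.91), and Slc2a1 to Cox7a2l (0.92), Ube2r2 (0.90) and Ppp1r12a (0.90). Among the 9 genes themselves, Igf1r and Pik3r1 had the most opposed profiles (r = -0.81).

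The rest of the pathway was described with a list of 69 genes, 69 of which were in the matrices (Trarg1 under its older symbol Tusc5). Of 60 genes tested in each library, 7 were led by adipocytes in each, against 4.48% and 5.75% of all genes, and 5 in both, against 2.74%. They included Grb14, a brake that binds the active insulin receptor, the adaptor Irs3, the phosphodiesterase Pde3b, through which insulin restrains lipolysis, and Tusc5, which acts in Slc2a4 vesicle traffic.

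Among ligands, other receptors and brakes at the receptor (11 genes), Grb14 was 163.5 and 207.5 CPM in adipocytes, 6.98 and 4.99 times the next class. Igf1, the growth factor that Igf1r binds, was 223 and 456 CPM in adipocytes and 319 and 338 CPM in myeloid nuclei. Sh2b2, an adaptor of the insulin receptor, was 51.4 and 154.5 CPM in adipocytes, 1.23 and 8.33 times the next class.

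Among adaptors and phosphoinositide 3-kinase genes (15), Irs3 was 66.9 and 37.3 CPM in adipocytes, 4.67 and 3.04 times the next class. The catalytic subunits Pik3cb (47.8 and 121.5 CPM) and Pik3ca (50.9 and 104 CPM) were not led by adipocytes.

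Among kinases and their regulators (16), Pde3b was 261 and 1087 CPM in adipocytes, 2.73 and 2.44 times lymphocytes. Gsk3b, a kinase that AKT inhibits, was 405 and 311 CPM, and Rps6kb1, the S6 kinase, 134 and 151 CPM, and neither was led by a class. Of these 3 genes, Pde3b alone reached a ratio between libraries of at least 2 in adipocytes, 4.17 (3.81 to 4.56), with a log2 ratio of 1.10 relative to genes of like intronic length.

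Among the genes of Slc2a4 vesicle traffic (15), Tusc5 was 191 and 219 CPM in adipocytes, 9.19 and 3.58 times the next class. Tbc1d4, the AKT substrate that holds these vesicles back, was 122 and 345 CPM in adipocytes and close to myeloid nuclei (164 and 353 CPM). Lnpep, a resident protein of the vesicles, was 182 and 245 CPM in adipocytes and 363 and 528 CPM in lymphocytes. Of these traffic genes, Tusc5 was led by adipocytes and the others had higher levels in an immune class.

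Among other glucose transporters and hexokinases (9), Hk2 was 919 and 634 CPM in adipocytes, 7.25 times the next class in the library labelled WT and 0.681 times myocytes (930 CPM) in the library labelled KO, the same order as for Slc2a4. Slc2a13, a myo-inositol transporter, was 19.0 and 372 CPM in adipocytes, and Slc2a3 8.23 and 66.3 CPM. Of the other FOXO factors, Foxo3 was 6.17 and 71.4 CPM in adipocytes, a ratio of 11.6 (6.58 to 22.5) and a log2 ratio of 2.85 relative to genes of like intronic length, from 12 UMIs in the library labelled WT. Foxo4 had 9 and 15 UMIs and Foxo6 0 and 4 UMIs in adipocytes, too few to be tested.

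Between the libraries, 21 of 54 list genes tested in adipocytes reached 2 and 7 lay at or under 0.5, with a median log2 ratio of 0.40. Relative to genes of like intronic length these counts were 13 and 7, with a median of 0.05. Over all genes tested, the shares were 26.0% and 17.6%, and 18.9% and 11.8% relative to genes of like intronic length.

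**Figure D5:**
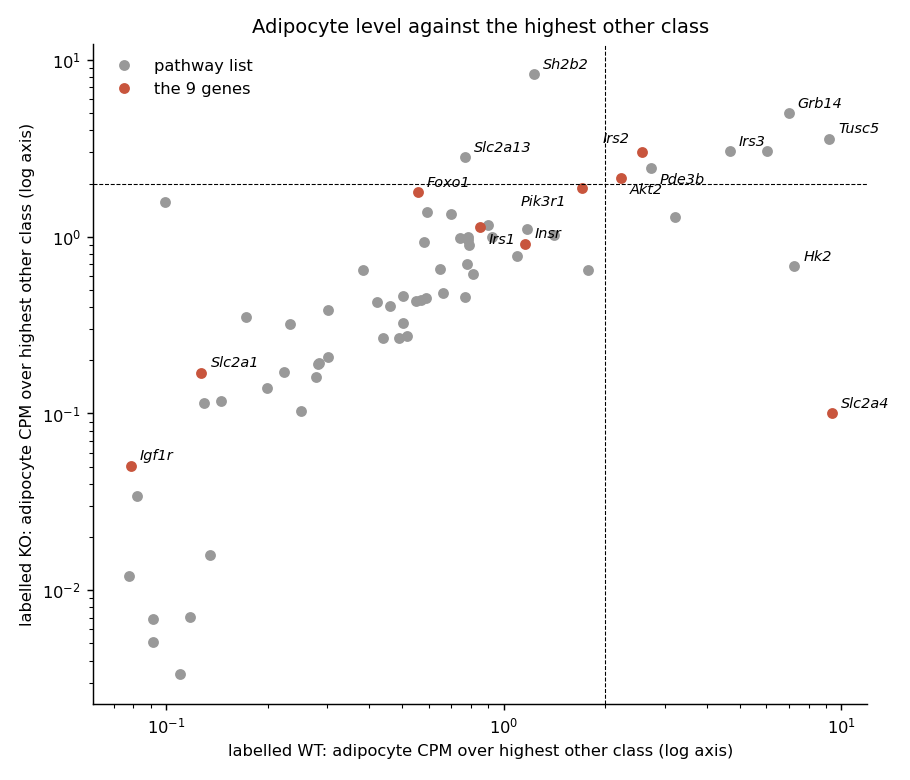
Adipocyte CPM over the CPM of the highest other class in the library labelled WT (x, log axis) and labelled KO (y, log axis) for the 9 genes (red) and the pathway list (grey), with dashed lines at 2. Irs2, Akt2, Grb14, Irs3, Pde3b and Tusc5 are among the genes beyond both lines, and Slc2a4, Hk2 and Sort1 lie beyond the line of the library labelled WT but not beyond that of the library labelled KO, where myocytes are the highest other class for these 3 genes.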

How the data were processed

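Nuclei of inguinal white adipose tissue were profiled in 2 libraries (10x Genomics 3′ v3.1 chemistry), each from 3 pooled mice. The authors deposited UMI counts per gene and barcode, made with Cell Ranger (6.1.1 per the file headers). The submitters' processing notes name mm10 and Seurat 4, and whether intronic reads were counted is not given in the sources used here. Each deposited matrix held 31053 genes and 5000 barcodes, with 9376351 UMIs (labelled WT) and 19655049 UMIs (labelled KO). The 9 genes, the pathway list and the marker lists were chosen with earlier results of these data known.

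Barcodes with at least 500 genes and at most 5% mitochondrial UMIs were kept. Doublets were scored with Scrublet (scanpy 1.11.5). The automatic threshold marked 92 nuclei (3.12%) of the library labelled KO. Since it marked 0 of the library labelled WT, the top 4% by score (146) were taken out there. Counts were merged and clustered with Seurat 5.3.0 in R 4.3.3 (scale factor 10000, 2000 variable genes, 20 components, 20 neighbours, resolution 0.5, no integration). This gave 18 clusters. A cluster was named where at least 3 markers of a class (each in at least 5% of nuclei and at 2 times or more the mean over all other clusters) passed with a lead of 3 over the next class. 192 and 15 nuclei stayed unnamed. Of the clusters with adipocytes, 1 had 889 of the 894 nuclei of the library labelled KO and the other had 417 of 417 of the library labelled WT.

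Counts were summed per class and library and divided by the class total. Intervals are exact Poisson (levels), Clopper-Pearson (shares) and conditional binomial (ratios), and cover counting error only. Differences between shares combined both exact intervals by square and add. Differences between log2 ratios used a normal interval with the summed reciprocal counts as variance. Intronic lengths were taken from GENCODE vM1 by Ensembl ID (93.7% of 11350 genes, 9 of 9 members), and coordinates from RefSeq on GRCm38.p6. Promoter windows matched 7 of 9 genes. Named pathway genes were those led by adipocytes in both libraries and, per functional group, up to 3 with the most adipocyte UMIs. The ratio step was tested on independent Poisson counts simulated from a pooled adipocyte profile with known folds. These held no shift with intronic length, no UMIs gathered in a few nuclei and no difference between pools. The simulation therefore checks the computation only. Alternatives covered the gene minimum, doublets, resolution, class assignment, scaling (with TMM from edgeR 4.0.16), intronic length, minimum count, fold, thinning and single nuclei. Some genes are not reported here by name.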

Additional observations from a re-analysis of the deposited data

Results flagged for a closer look

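Mural nuclei (pericytes and smooth muscle) numbered 10 (labelled WT) and 44 (labelled KO), under the minimum of 50, and stayed outside the comparisons. In the library labelled KO their counts were above the level of lymphocytes beyond counting error for 4 genes. Insr was 249.7 CPM (174 to 347) against 83.4 CPM in lymphocytes, Igf1r 292.5 CPM (210 to 397) against 83.4 CPM, Irs1 235.4 CPM (162 to 331) against 0 UMIs, and Pik3r1 649.2 CPM (523 to 797) against 352 CPM. Of the 35 Insr UMIs, 17 came from 3 nuclei. Without the 3 nuclei with most UMIs of the gene, Insr was 148 CPM (87.9 to 234.5), an interval overlapping that of lymphocytes (57.2 CPM, 29.5 to 99.9). Overlap of intervals does not decide whether a ratio is beyond counting error, and the ratio of mural nuclei to lymphocytes was not taken. The intervals of Igf1r (217 CPM, 141.5 to 317), Irs1 (175.5 CPM, 110.0 to 266) and Pik3r1 (522 CPM, 403 to 665.5) stayed above those of lymphocytes. Irs1, the adaptor that was otherwise detected mainly in adipocytes, ASPC, lymphoid stroma and myocytes, was thus also detected in these 44 nuclei, where its share of the Irs1 and Irs2 UMIs was 86.8% (71.9 to 95.6).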

How the results depend on the processing

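No paired analysis was possible because each genotype had 1 library and no test was made. Of 193 values of single genes recomputed under an alternative, 156 kept their call or moved by less than their counting interval, 30 moved by more, 4 lost and 2 gained a call, and 1 value beyond counting error changed sign. Another 20 values, all within counting error in the comparison as reported, changed sign, among them the ratios of Akt2, Irs2 and Igf1r in adipocytes. The calls lost, gained or reversed (7) were differences between classes in the ratio between libraries, without the 3 nuclei with most UMIs of the gene (chosen after the data had been seen), the change of sign being that of Igf1r against lymphocytes, from -1.08 to 0.48. With only the 5 classes of both libraries compared (chosen after the data had been seen), 4 of the 9 genes in place of 2 were led by adipocytes in both, Slc2a4 and Pik3r1 being added (3.80% of all genes), and 8 list genes in place of 5. With nuclei assigned by their own marker UMIs, 3 list genes were, and 1 of the 9 genes (Slc2a4) had a lower share of adipocyte nuclei with a UMI in the library labelled KO in place of 0. Without thinning, 7 genes in place of 4 had a higher share, and neither count was set against all genes. For ratios in adipocytes, 2 genes in place of 4 reached 2 after correction for intronic length, and 1 gene in place of 0 was at most 0.5 with that correction (Igf1r), with class totals without mitochondrial genes and Malat1 (Slc2a4), and with no doublet removal (Slc2a1). The genes' median log2 value of 0.60 became 0.27 with no doublet removal, 0.88 with TMM scaling, 0.34 without mitochondrial genes and Malat1, 0.16 corrected for intronic length, 0.14 with no minimum count and 1.05 with at least 200 UMIs. These 2 scalings moved the median of all genes from -0.01 to 0.28 and -0.26. For the pathway list, the count at or above 2 was 13 and the median 0.05 corrected for intronic length, the median was 1.01 with at least 200 UMIs, and the count at most 0.5 was 17 with no minimum count and 2 with at least 200 UMIs. Depth limits Slc2a1 most, with 14 UMIs in adipocytes of the library labelled WT, and endothelial nuclei and lymphocytes of the library labelled KO.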
